A study of Mus musculus with 10 samples.

Results

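Brap and 7 kinases or pseudokinases of the KSR-RAF-MEK-ERK cascade, Ksr1, Ksr2, Araf, Braf, Map2k1, Map2k2 and Mapk3, were followed through RNA-seq of mouse cerebral cortex. The 8 genes were chosen by name, as Brap and the kinases its protein acts on or upstream of, and all 8 were present among the 14276 genes of the count table. Ribosomal RNA-depleted total RNA of C57BL/6 mice aged 3 months gave 10 libraries, 5 labelled control and 5 labelled BrapcKO, the conditional knockout of Brap. Among the controls, 08, 22 and 23 were flox/wt Cre- and 09 and 24 were flox/flox Cre-. Among the BrapcKO libraries, 04, 07 and 21 were flox/ko Cre+ and 05 and 06 were flox/flox Cre+. A flox allele carries recombination sites for Cre, and a ko allele is a knocked-out one. All 10 libraries carried at least 1 flox allele. The Cre driver and the exons between the recombination sites are not known from the labels. Cre was present in each BrapcKO library and in none of the controls, so Cre itself and the loss of Brap cannot be told apart. The libraries were not stated to each come from a separate animal, so part of the spread behind each p-value may be technical.

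The cascade carries signals from growth factor receptors through Ras. Active Ras recruits RAF kinases, RAF phosphorylates the MEK kinases, and MEK phosphorylates ERK, which acts on other kinases and on transcription factors in the nucleus. KSR proteins are scaffolds that hold RAF, MEK and ERK together. BRAP, also known as IMP, is a RING-type ubiquitin ligase that binds KSR and limits the assembly of this complex, and active Ras relieves that limit by binding BRAP. In neurons the cascade is known for its part in synaptic plasticity and memory. Counts of RNA show transcript levels only, and say nothing on phosphorylation or on the protein.

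The sequences around the annotated starts are shown for Brap, the targeted gene, for the KSR pair to which its protein binds, and for Braf, whose level separated the libraries by title code. They are RefSeq windows of GRCm38.p6, 250 bases before to 50 after the start, 5′ to 3′ on the gene's strand, at chr5:121660313-121660612 (plus) for Brap, chr11:79146424-79146723 (minus) for Ksr1, chr5:117413752-117414051 (plus) for Ksr2 and chr6:39725414-39725713 (minus) for Braf. Capitals mark the motifs found.
Brap: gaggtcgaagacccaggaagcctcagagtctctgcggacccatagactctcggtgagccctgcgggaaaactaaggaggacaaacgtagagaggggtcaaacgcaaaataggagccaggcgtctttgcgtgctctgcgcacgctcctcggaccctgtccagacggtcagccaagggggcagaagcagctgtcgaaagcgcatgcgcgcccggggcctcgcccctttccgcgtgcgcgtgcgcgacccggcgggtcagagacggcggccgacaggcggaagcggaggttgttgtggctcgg
Ksr1: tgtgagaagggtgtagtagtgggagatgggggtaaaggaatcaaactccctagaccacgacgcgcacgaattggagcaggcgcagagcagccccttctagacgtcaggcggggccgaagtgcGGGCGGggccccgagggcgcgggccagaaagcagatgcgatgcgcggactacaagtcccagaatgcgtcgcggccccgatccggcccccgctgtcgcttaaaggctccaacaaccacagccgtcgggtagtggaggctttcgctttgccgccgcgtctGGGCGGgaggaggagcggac
Ksr2: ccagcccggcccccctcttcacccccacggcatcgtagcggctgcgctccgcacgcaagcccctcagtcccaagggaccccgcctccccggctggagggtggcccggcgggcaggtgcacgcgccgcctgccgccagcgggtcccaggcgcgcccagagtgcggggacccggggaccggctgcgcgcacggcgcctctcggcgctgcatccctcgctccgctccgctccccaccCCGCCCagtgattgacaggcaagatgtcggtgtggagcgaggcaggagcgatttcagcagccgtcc
Braf: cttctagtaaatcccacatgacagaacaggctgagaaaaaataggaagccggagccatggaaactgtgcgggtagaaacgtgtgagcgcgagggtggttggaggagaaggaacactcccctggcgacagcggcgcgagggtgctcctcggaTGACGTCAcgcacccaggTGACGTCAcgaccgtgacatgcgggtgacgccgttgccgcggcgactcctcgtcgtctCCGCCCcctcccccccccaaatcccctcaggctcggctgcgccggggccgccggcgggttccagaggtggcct
3 motifs were searched on both strands: CCGGAAG, an ETS core of the kind bound by the ERK target ELK1; TGACGTCA, the cyclic AMP response element (CRE); and GGGCGG, the GC box. No matches overlapped in the windows printed. The Braf window held 2 copies of the CRE and 1 GC box. A CRE was present in 1.79% of 32851 promoter windows of the same length. The Ksr1 window shown held 2 GC boxes and the Ksr2 window 1, and the Map2k1 window, not shown, held 4, against 35.7% of all windows with at least 1. The Brap window held none of the 3 motifs, and the ETS letters, present in 8.86% of all windows, were in none of the 9 windows found for 7 of the 8 genes. The windows printed for Brap, Ksr1, Ksr2 and Braf had a GC content of 65.3%, 65.3%, 75.3% and 65% against a median of 52.7% over all windows.

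Libraries held 17188901 to 28991874 counts, and the 8 genes 926 to 8970 counts per library, for a counting error of 3.29% down to 1.06%. That error covers counting only. Each title also holds B1 or B2, a code of unstated meaning: 2 control and 4 BrapcKO libraries were B1, and 3 control and 1 BrapcKO library were B2. The Y-linked gene Ddx3y reached 118.8 to 146.6 CPM (counts scaled to library size) in control 23 and BrapcKO 05, 06, 07 and 21 and at most 0.0526 CPM elsewhere, so 1 control and 4 BrapcKO libraries had male reads. Sex was thus uneven between the groups, and the main model held no term for it. Markers of reactive astrocytes, the state of these glia after injury, summed to 174.9 to 219.3 CPM in controls and 451.9 to 1469 CPM in BrapcKO libraries, with 4 of 5 measured markers called higher between groups at an edgeR adjusted p under 0.05, as were 3.12% of all genes. Microglial markers summed to 357.6 to 385.1 and 498.6 to 1409 CPM, with 2 of 10 called higher. Striatal projection neuron markers summed to 532.5 to 1172 and 925 to 1728 CPM, with 5 of 8 called higher, although the tissue was labelled cortex. None of these markers stood at 0, and the part of these cells in the values below was not tested. Markers of neurons in general summed to 9686 to 10570 and 9204 to 10450 CPM, with Gad1 (0.57) and Gad2 (1.23), of inhibitory neurons, called higher and Nefl (-0.69) and Syt1 (-0.34) called lower on the log2 scale. Oligodendrocyte markers summed to 3334 to 4653 and 2483 to 3412 CPM, with 0 of 8 called. In bulk tissue fewer cells of a type and less RNA per cell cannot be told apart.

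Per kilobase of exon, Map2k1 and Mapk3 lay highest. Levels were CPM, scaled by the TMM method, divided by the length of all annotated exons in kilobases, here called RPKM. Map2k1, which encodes MEK1, stood at 82.83 ± 9.33 RPKM (SD, n = 10). Mapk3, which encodes ERK1, followed at 40.84 ± 8.72. Braf stood at 23.65 ± 3.80 and Araf, the RAF kinase of weaker catalytic activity, at 22.45 ± 2.22. The mean levels of Brap, Ksr1, Map2k2 and Ksr2 were 11.41 ± 1.39, 9.64 ± 1.34, 9.24 ± 1.32 and 8.43 ± 1.66 RPKM. Each gene lay above the next in all 10 libraries except at 3 steps: Braf above Araf, Ksr1 above Map2k2 and Map2k2, which encodes MEK2, above Ksr2 held in 7 of 10 libraries each. At those 3 steps the mean log2 ratio, 0.06, 0.06 and 0.15, was smaller than its SD over libraries, 0.29, 0.13 and 0.28. Annotated exons need not all be used in cortex, so the order depends on the lengths taken.

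None of the 8 genes passed the test between the groups, and 7 of the 8 differences were above 0. The largest were those of Map2k1, Araf, Brap and Map2k2, each between 0.22 and 0.25 on the log2 scale. With edgeR's quasi-likelihood test, title code as a term and Benjamini-Hochberg adjustment over all genes, 0 of 8 were called at an adjusted p under 0.05, against a background of 8.07% of all 14276 genes. At an unadjusted p under 0.05 there were 3 of the 8, against 22.2% of all genes. DESeq2 called 2 of the 8, Araf and Map2k1 (background 11.8%), and limma-voom 0. Without control 24, edgeR called Map2k1 (0.27, adjusted p = 0.0472) and Map2k2 (0.27, adjusted p = 0.0268), and without BrapcKO 05 it called Araf (0.28, adjusted p = 0.0301). The median log2 difference was 0.18 over the 8 genes and 0.01 over all genes, and 51.7% of all genes had a difference above 0.

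**Figure D1:**
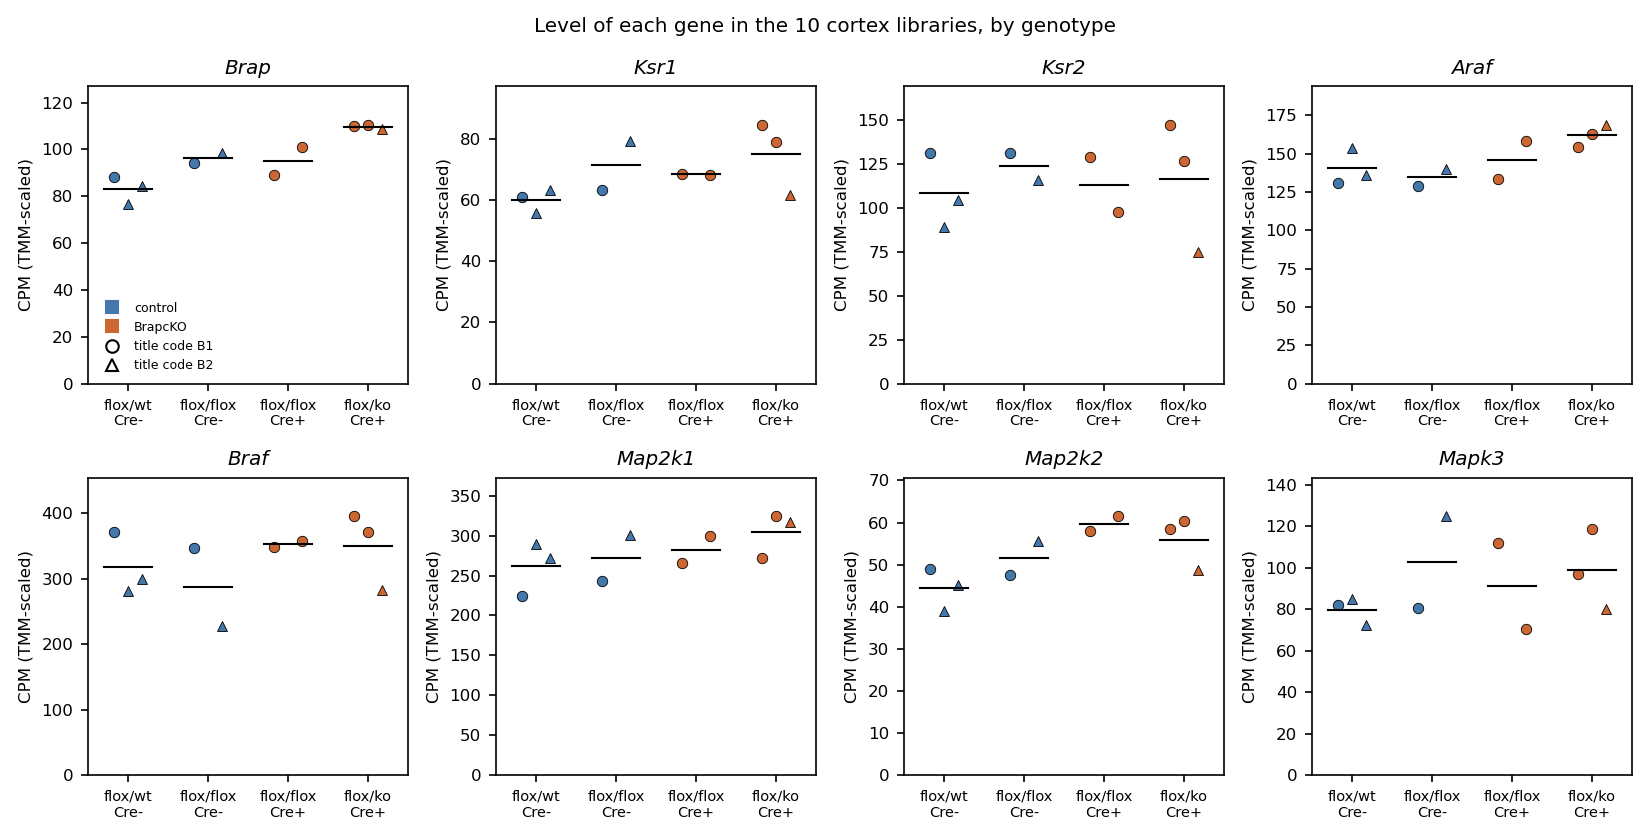
Level of each of the 8 genes in CPM (y axis, linear from 0) in the 10 libraries, by genotype (x axis); colour is the group, shape the title code, and the line is the mean of the genotype. Brap lies at 108.8 to 110.5 CPM in the 3 flox/ko Cre+ libraries and at 76.68 to 88.11 in the 3 flox/wt Cre- libraries, while the 4 B2 triangles of Braf lie below its 6 B1 circles.

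Brap is the targeted gene. Brap has the identifier ENSMUSG00000029458.14 and spans chromosome 5 from 121660563 to 121687256 on the plus strand of GRCm38. Its level was 88.11, 76.68 and 84.19 CPM in the flox/wt controls 08, 22 and 23, and at 94.31 and 98.62 CPM in the flox/flox controls 09 and 24. The libraries labelled flox/flox Cre+, 05 and 06, had 88.96 and 100.9 CPM, and those labelled flox/ko Cre+, 04, 07 and 21, had 109.9, 110.5 and 108.8 CPM. The values were thus not lower in the libraries labelled BrapcKO, and 4 of those 5 lay above the highest control. The share of all genes with that order is not given here. The group difference was 0.23 on the log2 scale (SE 0.10, 95% interval 0.02 to 0.44, edgeR adjusted p = 0.182). A two-sided exact permutation of the group labels within title codes gave p = 0.05 over 60 arrangements, the smallest possible being 0.0167. A single count per gene cannot show the loss of some exons, so this value does not check the labels, and each direction below rests on them.

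By genotype, Brap RNA rose in flox/ko Cre+ against flox/wt Cre- libraries. These genotypes differ in the second allele, ko against wt, as well as in Cre, and the effects of allele and Cre cannot be told apart. Sex was uneven too, with male reads in BrapcKO 07 and 21 and in control 23. The log2 difference was 0.39 (SE 0.09, 95% interval 0.18 to 0.60), a level 1.31 times as high, with an edgeR adjusted p of 0.0402 in a model of 4 genotypes and title code. Brap was the 1 of the 8 genes called in this contrast, against 4.84% of all genes, and 4 of the 8 had an unadjusted p under 0.05, against 19.4% of all genes. The call was lost without the title code as a term (adjusted p = 0.0954) and without any 1 of the 6 libraries of the contrast, control 08, 22 or 23 or BrapcKO 04, 07 or 21, at 0.35 to 0.46 with adjusted p from 0.0757 to 0.16. The 3 flox/ko libraries lay above all 7 others and the 3 flox/wt libraries below all 7 others. Of all genes, 1.56% had the flox/ko order, 1.27% the flox/wt order and 0.0911%, 13 genes, both.

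The contrast within flox/flox libraries, Cre+ minus Cre-, gave Brap a log2 difference of -0.04 (95% interval -0.30 to 0.22, edgeR adjusted p = 0.921). Ddx3y stood at 118.8 and 132.6 CPM in its Cre+ libraries, 05 and 06, and at 0.0508 and 0 CPM in its Cre- libraries, 09 and 24. Cre and sex therefore cannot be told apart in this contrast. Here 0 of the 8 genes were called by edgeR or DESeq2, none had an unadjusted p under 0.05 (13.5% of all genes), and 0.736% of all genes were called by edgeR. The difference between the 2 Cre+ minus Cre- contrasts for Brap was 0.43 on the log2 scale (SE 0.14, 95% interval 0.12 to 0.75). Its unadjusted edgeR p was 0.0122 and its adjusted p 0.788. That difference mixes Cre, the ko allele and sex, which cannot be told apart in it. None of the 14276 genes was called by edgeR for that difference (0%), 873 had an unadjusted p under 0.05, and DESeq2 called 37, none of them among the 8. The 2 other genotype contrasts likewise had 0 edgeR calls (0% each). Flox/flox Cre- minus flox/wt Cre- had 1012 genes at an unadjusted p under 0.05 and 4 DESeq2 calls, and flox/ko Cre+ minus flox/flox Cre+ had 960 and 83. Brap differed by 0.21 in the former (95% interval -0.01 to 0.44) and by 0.22 in the latter (-0.01 to 0.45) on the log2 scale.

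**Figure D2:**
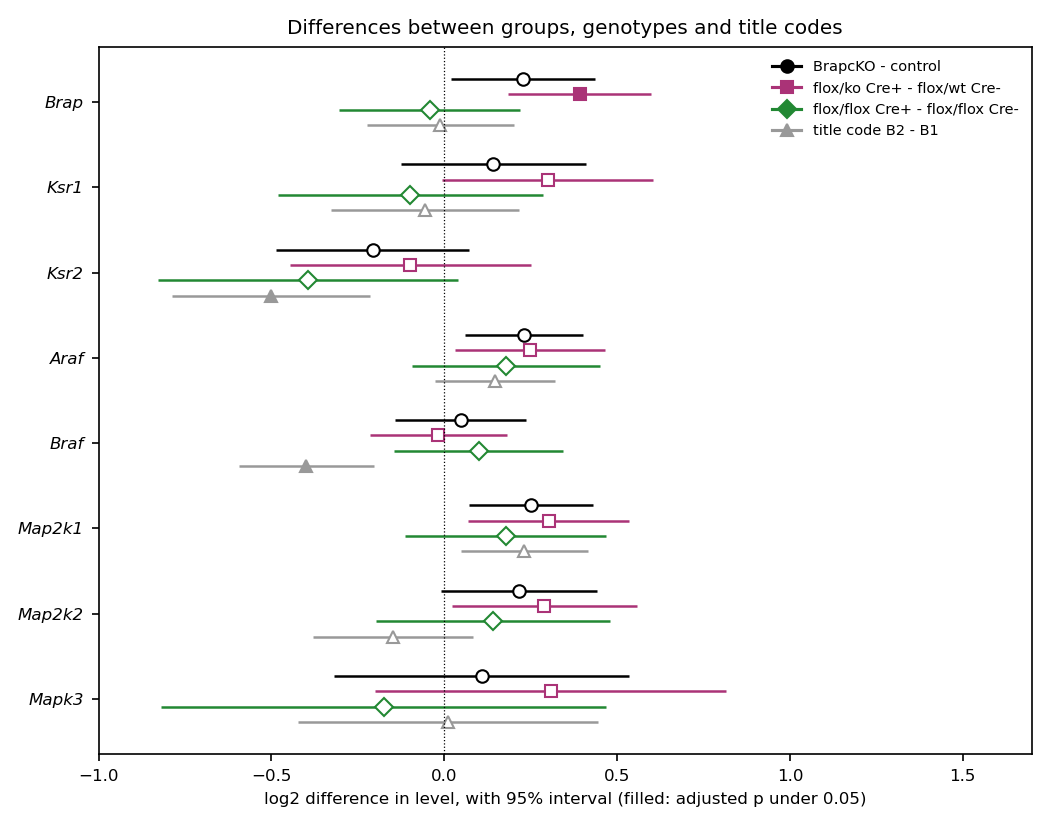
Log2 differences in level (x axis) with 95% intervals for each gene (y axis) in 4 comparisons, each with its own marker; a filled marker has an edgeR adjusted p under 0.05. The filled markers are Brap in flox/ko Cre+ minus flox/wt Cre- (0.39) and Ksr2 and Braf in B2 minus B1 (-0.50 and -0.40).

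The KSR scaffolds are the proteins to which BRAP binds. Ksr1 (ENSMUSG00000018334.18, chromosome 11, 79013440 to 79146407, minus strand) had 60.94, 63.18, 55.62, 63.35 and 79.47 CPM in control 08, 09, 22, 23 and 24. The corresponding values were 84.62, 68.57, 68.23, 79.02 and 61.82 CPM in BrapcKO 04, 05, 06, 07 and 21. The groups overlapped, with all 4 BrapcKO libraries above both controls within B1 (14.1% of all genes) and BrapcKO 21 inside the control range within B2. The log2 difference was 0.14 (95% interval -0.12 to 0.41, edgeR adjusted p = 0.553).

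Ksr2 (ENSMUSG00000061578.8, chromosome 5, 117414000 to 117775003, plus strand), the relative known for its role in energy balance, lies 3.89 Mb from Brap on the same chromosome. It stood at 131, 131.3, 89.04, 104.1 and 115.6 CPM in control 08, 09, 22, 23 and 24, and at 147.1, 128.6, 97.55, 126.6 and 74.96 CPM in BrapcKO 04, 05, 06, 07 and 21. Both the highest and the lowest of the 10 values were BrapcKO libraries. Its group difference was -0.21 on the log2 scale (95% interval -0.49 to 0.07, edgeR adjusted p = 0.384), and 0.01 without the title code as a term. Between title codes it fell, at 127 ± 16.2 CPM in B1 (SD, n = 6) and 95.93 ± 17.7 CPM in B2 (n = 4), a log2 difference of -0.50 (SE 0.13, edgeR adjusted p = 0.0147), a call lost without 1 of the 10 libraries, BrapcKO 21 (adjusted p = 0.16).

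The ratio of Ksr2 to Ksr1 within a library does not depend on its total. Per kilobase, its log2 value was 0.14 in the B1 controls and -0.21 in the B1 BrapcKO libraries, and -0.29 in the B2 controls and -0.66 in the B2 BrapcKO library. Within each code the BrapcKO values lay lower, by 0.36 on the log2 scale with the code as a term. The two-sided exact permutation p within codes was 0.0167, the smallest that 60 arrangements allow, and 0.0668 after adjustment over the 4 ratios tested. A ratio that alone reached the smallest p could not fall under 0.05 after that adjustment. The difference thus did not pass, in a test that could not have passed it. With group alone the difference was -0.18 (exact p = 0.27). When a library was left out the difference ran from -0.40 to -0.32. The exact p was then 0.133 without BrapcKO 21, where the smallest possible is 0.0667, and 0.05 without control 08 or 09, the smallest possible there, so those fits could not pass.

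**Figure D3:**
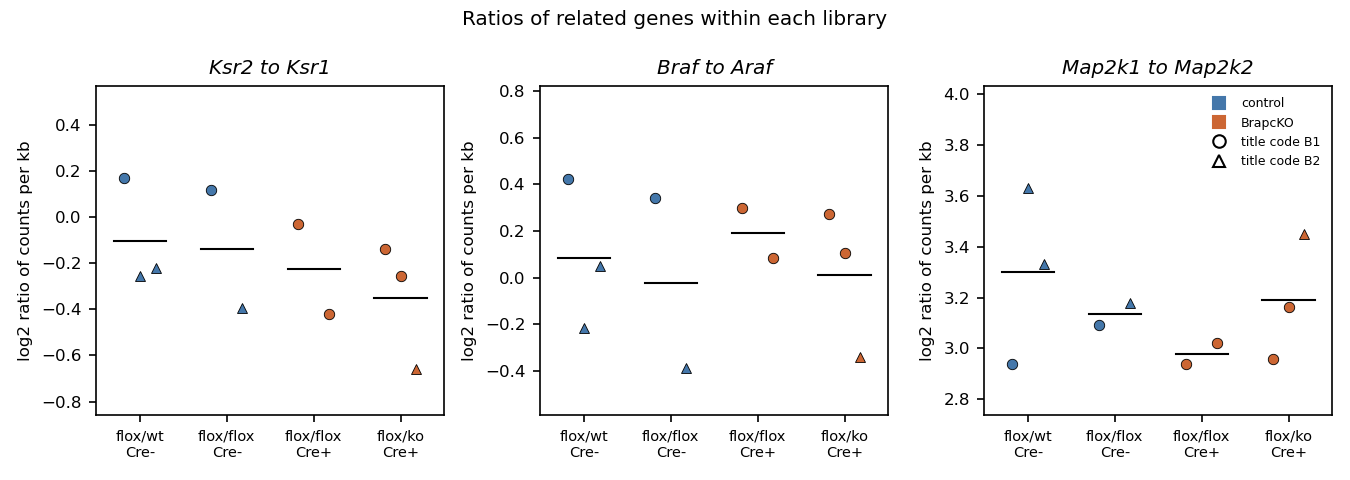
Log2 ratio of counts per kilobase for 3 pairs of related genes (y axes, each with its own range) in the 10 libraries by genotype (x axis); colour is the group, shape the title code, and the line is the genotype mean. In Ksr2 to Ksr1, BrapcKO 21 is lowest at -0.66, and in Braf to Araf the B2 triangles lie lower than the B1 circles.

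Of the RAF kinases, Braf differed by title code, and neither Araf nor Braf passed the edgeR test between groups. Araf (ENSMUSG00000001127.12, chromosome X, 20797814 to 20860519, plus strand) had 130.9, 128.9, 154, 136.3 and 140.3 CPM in control 08, 09, 22, 23 and 24, and at 154.4, 133.2, 158.6, 162.7 and 168.9 CPM in BrapcKO 04, 05, 06, 07 and 21. Within each code every BrapcKO library lay above every control, an order found in 7.43% of all genes. Its log2 difference was 0.23 (SE 0.08, 95% interval 0.06 to 0.40), with an edgeR adjusted p of 0.0987, a DESeq2 adjusted p of 0.0391 and an exact permutation p of 0.0167 within codes, the smallest possible. Its last 9 bases overlap the neuronal gene Syn1 on the other strand.

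Braf (ENSMUSG00000002413.15, chromosome 6, 39603237 to 39725463, minus strand), the RAF kinase of strongest basal activity, stood at 371.6 and 346.1 CPM in the B1 controls 08 and 09, and at 395, 347.6, 356.6 and 370.8 CPM in the B1 BrapcKO libraries 04, 05, 06 and 07. In B2 it stood at 281.4, 299.3 and 227.3 CPM in control 22, 23 and 24 and at 282.8 CPM in BrapcKO 21. All 4 B2 values lay below all 6 B1 values, an order found in 8.92% of all genes. The log2 difference B2 minus B1 was -0.40 (SE 0.09, edgeR adjusted p = 0.00576). The group difference was 0.05 (95% interval -0.14 to 0.24, edgeR adjusted p = 0.806). Braf overlaps the gene Ndufb2 by 146 bases on the other strand, and the labels do not say whether counting used strand.

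Between title codes 2 of the 8 genes were called, Ksr2 and Braf, both lower in B2, where 25.1% of all genes were called, 13.4% higher and 11.8% lower. Of the 106 genes in the pathway lists described below, 29.2% were called between title codes, 19 higher and 12 lower in B2. The scaffolds and regulators of KSR and RAF had 10 of 24 genes called higher and 2 lower. Of the 14-3-3 proteins, which bind phosphorylated RAF and KSR, 5 of 6 measured genes were also called higher in B2, from Ywhaq at 1.46 to Ywhag at 0.31 on the log2 scale. Between groups 0 of these 6 were called, and their differences ran from -0.02 for Ywhaz to 0.05 for Ywhab. The log2 ratio of Braf to Araf per kilobase was 0.38 and 0.19 in the control and BrapcKO libraries of B1 and -0.18 and -0.34 in those of B2, and its group difference with the code as a term was -0.18 (exact permutation p = 0.133).

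Of the MEK kinases, which take the signal from RAF to ERK, Map2k1 had the smallest adjusted p of the 8 genes between groups. It (ENSMUSG00000004936.8, chromosome 9, 64185770 to 64253631, minus strand) had 224.8, 243.1, 289.5, 272.1 and 301.3 CPM in control 08, 09, 22, 23 and 24, and at 271.4, 265.8, 298.9, 324.2 and 317.6 CPM in BrapcKO 04, 05, 06, 07 and 21. Pooled, the groups overlapped, and within each code every BrapcKO library lay above every control. The log2 difference was 0.25 (SE 0.08, 95% interval 0.07 to 0.43), with an edgeR adjusted p of 0.0901, a DESeq2 adjusted p of 0.0291 and an exact permutation p of 0.0333 within codes. The gene Uchl4, 1162 bases long, lies inside Map2k1 on the other strand.

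Map2k2 (ENSMUSG00000035027.18, chromosome 10, 81105915 to 81133975, plus strand) had 48.94, 47.64, 39, 45.1 and 55.65 CPM in control 08, 09, 22, 23 and 24, and at 58.39, 57.9, 61.48, 60.4 and 48.61 CPM in BrapcKO 04, 05, 06, 07 and 21. The 4 B1 BrapcKO libraries lay above all 5 controls, an order whose share over all genes is not given here. BrapcKO 21 lay within the control range. The log2 difference was 0.22 (95% interval -0.01 to 0.44, edgeR adjusted p = 0.248, exact permutation p = 0.0833 within codes). Per kilobase, Map2k1 exceeded Map2k2 by 9.54 ± 1.82 times in controls and 8.69 ± 1.35 times in BrapcKO libraries (SD, n = 5 each), and the log2 ratio differed by 0.03 with the code as a term (exact p = 0.833).

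Mapk3 (ENSMUSG00000063065.13, chromosome 7, 126759601 to 126765819, plus strand), the ERK at the end of the cascade, stood at 81.8, 80.42, 84.75, 72.43 and 124.7 CPM in control 08, 09, 22, 23 and 24. The corresponding values were 96.81, 111.6, 70.17, 118.7 and 80.23 CPM in BrapcKO 04, 05, 06, 07 and 21. The highest value was a control and the lowest a BrapcKO library. The log2 difference was 0.11 (95% interval -0.32 to 0.53, edgeR adjusted p = 0.802).

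None of the 8 genes had groups that did not overlap, an order that 6.82% of all genes had. For Brap, Araf and Map2k2, 4 of 5 BrapcKO libraries lay above the highest control, an order whose share over all genes is not given here. Within B1, all 4 BrapcKO libraries lay above both controls for Ksr1, Araf, Map2k1 and Map2k2, an order of 14.1% of all genes. Within B2, the single BrapcKO library lay above all 3 controls for Brap, Araf and Map2k1 (32% of all genes) and below them for Ksr2 (31.8%). Araf and Map2k1 had the higher order in both codes, as did 7.43% of all genes.

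Across the 10 libraries, the genes whose log2 CPM followed Brap most closely were Fam110b (Pearson r = 0.937), Dok7 (0.928) and Ets2 (0.927), among 13353 genes ranked. The closest to each other gene were Abr for Ksr1 (0.939), Bsn for Ksr2 (0.979), Cops4 for Araf (0.949), Nt5dc1 for Braf (0.986), Nhlrc1 for Map2k1 (0.968), Sbf1 for Map2k2 (0.955) and Ntsr2 for Mapk3 (0.956). Among the 8 themselves, r was largest for Araf with Map2k1, 0.826, and for Ksr1 with Map2k2, 0.809. These describe libraries that share group, title code and scaling. After group and title code were removed, Araf with Map2k1 stood at 0.573 and Ksr1 with Map2k2 at 0.798.

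Around the cascade, 106 genes of 9 pathway lists were tested. Of these 4 were called higher, against 3.12% of all genes, and 10 lower, against 4.95%, so 13.2% were called in either direction. The calls lay among receptor adaptors, Ras regulators, genes of ERK-activated kinases and nuclear targets, the other ERK kinases and the parallel JNK and p38 kinases. The Ras GTPases (11 genes, median log2 difference 0.01), the scaffolds and regulators of KSR and RAF (24 genes, median -0.004) and the 14-3-3 proteins held no edgeR call. The smallest p among the Ras GTPases was that of Rras2 (-0.22, edgeR adjusted p = 0.171), and among the scaffolds that of Arrb1, a beta-arrestin that can hold RAF and ERK, at 0.26 (adjusted p = 0.0637), which passed with DESeq2 (adjusted p = 0.0147) and with library totals as the only scaling (adjusted p = 0.0381).

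Receptor adaptors link receptors to Ras, and 3 of 13 fell and 0 rose, against 4.95% and 3.12% of all genes. Shc3, the SHC adaptor of neurons, stood at 130.4, 149.5, 125.9, 133.3 and 132.2 CPM in control 08, 09, 22, 23 and 24, and at 77.21, 92.38, 87.92, 80.92 and 72.41 CPM in BrapcKO 04, 05, 06, 07 and 21. All 5 BrapcKO values lay below all 5 controls, and 6.82% of all genes had groups apart in either direction. The log2 difference was -0.77 (SE 0.08, edgeR adjusted p = 0.000209). The insulin receptor substrates fell too, Irs1 by 0.52 (adjusted p = 0.0156) and Irs2 by 0.44 (adjusted p = 0.0414) on the log2 scale.

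Of 13 genes that encode ERK-activated kinases and nuclear targets, 2 rose in RNA level and 0 fell, against 3.12% and 4.95% of all genes. The list names proteins on which the cascade acts, and its RNA levels do not measure ERK activity. Elk1, an ETS transcription factor that ERK phosphorylates, stood at 37.59, 52.38, 35.53, 47.05 and 36.23 CPM in control 08, 09, 22, 23 and 24, and at 67.1, 63.4, 84.99, 71.59 and 68.76 CPM in BrapcKO 04, 05, 06, 07 and 21. The groups did not overlap, as in 6.82% of all genes, and the log2 difference was 0.72 (SE 0.13, edgeR adjusted p = 0.00516). The nearest ends of Elk1 and Araf lie 72.9 kb apart on chromosome X. Rps6ka6, which encodes the kinase RSK4, also lies on chromosome X. It rose from 7.49 ± 1.41 to 12.1 ± 2.64 CPM (SD, n = 5 each), or by 0.75 on the log2 scale (edgeR adjusted p = 0.023). With a score of Y-linked genes as a further term, neither Elk1 (0.54, edgeR adjusted p = 0.0983) nor Rps6ka6 (0.63, adjusted p = 0.25) was called.

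Of the Ras GTPase-activating proteins and relatives, which switch Ras off, 1 of 12 rose and 3 fell. Of all genes, 3.12% were called higher and 4.95% lower. Rasa4 rose from 3.06 ± 0.621 to 7.34 ± 2.74 CPM, a log2 difference of 1.37 (edgeR adjusted p = 0.00823). Iqgap2, a relative that holds kinases and lacks that activity, fell by 0.74, Dab2ip by 0.41 and Rasal2 by 0.28 on the log2 scale (adjusted p = 0.0217, 0.0358 and 0.023). Of 12 exchange factors, which switch Ras and Rap on, Rapgef5 rose by 0.45 and Rasgrf2 fell by 0.38 (adjusted p = 0.0471 and 0.0324). Of the other MAP kinases, Map2k6 of the p38 branch fell by 0.49, Mapk10, the neuronal JNK, by 0.31, and Mapk6, an atypical ERK, by 0.35 (adjusted p = 0.0096, 0.0129 and 0.0493). They were 2 of 12 JNK, p38 and ERK5 kinases and 1 of 4 other RAF and ERK kinases, with 0 called higher in either list.

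**Figure D4:**
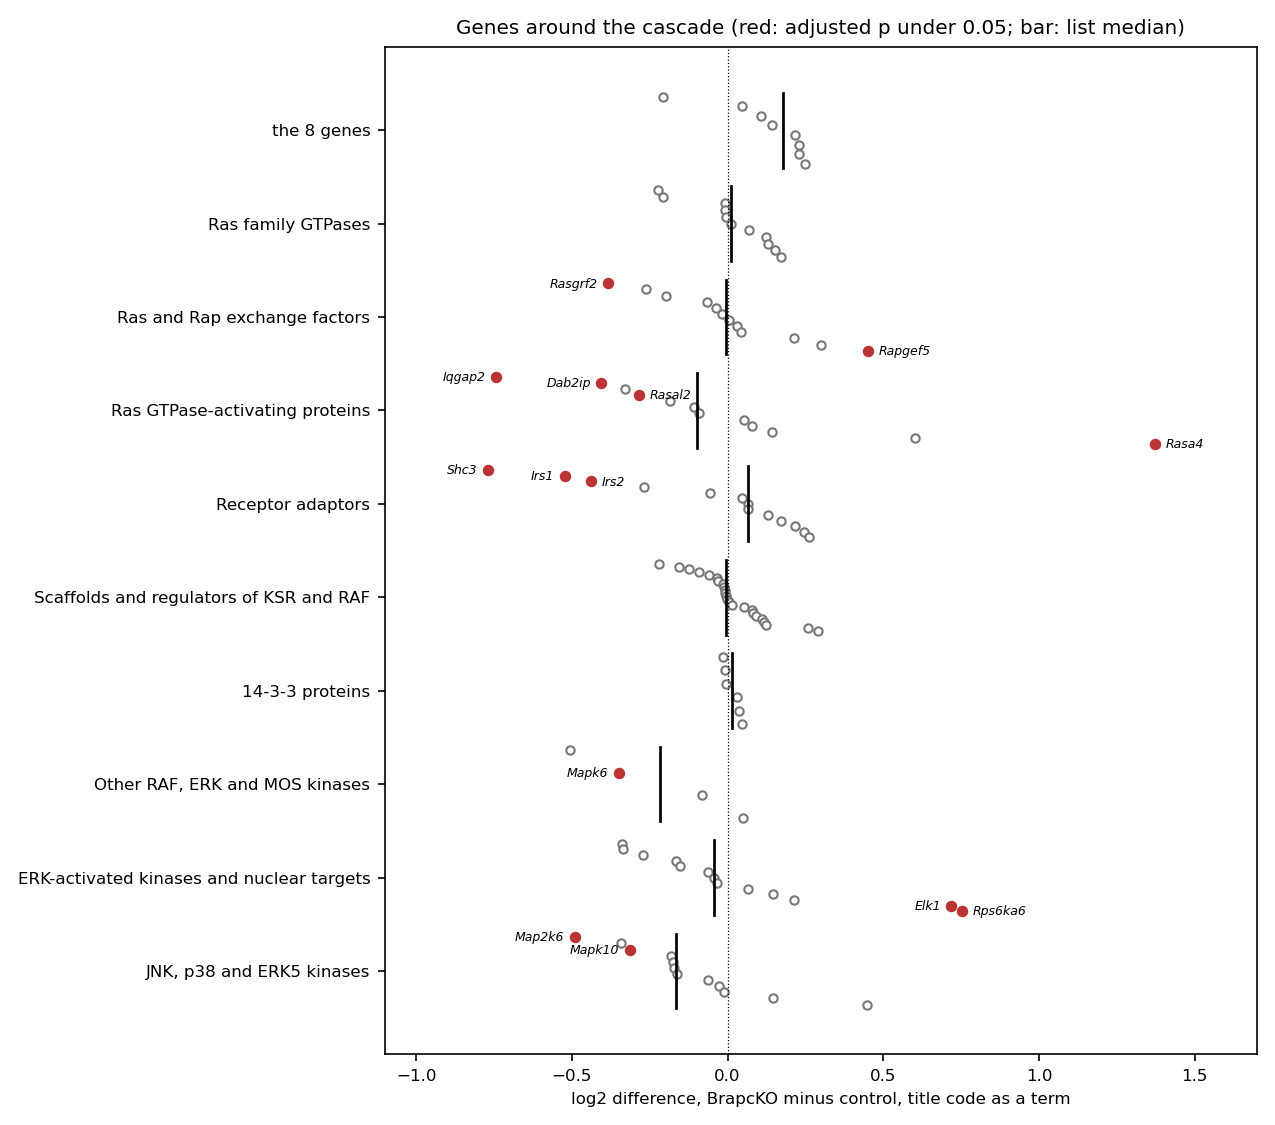
Log2 difference BrapcKO minus control (x axis) for the 8 genes and for each gene of 9 pathway lists (y axis); red points have an edgeR adjusted p under 0.05 and the bar is the list's median. The 8 genes hold no red point and a median of 0.18, and red points reach from Shc3 at -0.77 to Rasa4 at 1.37.

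Of the 14 calls, that of Shc3 held in all 10 fits that left out a library and in all 10 other fits run, with a log2 difference between -0.85 and -0.71. The other 13 calls did not hold in all 10 fits that left out a library. Elk1, Rasa4 and Map2k6 were called in 9 of the 10 fits, Rps6ka6 and Iqgap2 in 8, Irs1 and Mapk10 in 7 and Rasal2 in 5. Rasgrf2 was called in 4, Dab2ip in 3, Mapk6 and Rapgef5 in 2 and Irs2 in 1, with the adjusted p of Irs2 as high as 0.245 without control 09. With title code and a Y-linked score as terms Shc3 was the only 1 of the 14 still called (-0.85, edgeR adjusted p = 0.00405), and Elk1 stood at 0.54 (adjusted p = 0.0983) and Rasa4 at 1.13 (adjusted p = 0.195). Without BrapcKO 21, Iqgap2 stood at -0.46 (adjusted p = 0.149), Rps6ka6 at 0.50 (adjusted p = 0.285) and Rapgef5 at 0.24 (adjusted p = 0.434).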

How the data were processed

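RNA-seq of 10 mouse cortex libraries was used. The submitters' processing notes name Subread, featureCounts, FastQC, edgeR and DESeq2, and the builds mm10 and GRCm38, without versions, settings or strand use. Values as deposited by the authors are raw counts per gene, 1 column per library, not normalised. Of 14276 identifiers, 14271 matched GENCODE M21 of GRCm38; edgeR's default filter removed 0 genes, and each gene reached at least 0.582 CPM in 5 libraries. Here counts were fitted with edgeR 4.0.16 in R 4.3.3 (TMM, robust quasi-likelihood test, title code and group as terms; or 4 genotypes and title code), with Benjamini-Hochberg adjustment over all genes and a threshold of 0.05. Standard errors are the log2 difference over the square root of F. DESeq2 1.42.0, limma-voom (limma 3.58.1), other scalings, filters and terms, and leaving out each library were alternatives. Replicates differed beyond counting noise (chi-square per degree of freedom 7.15 to 96.3), and the test was tested on simulated data. The 8 genes and the lists were chosen with earlier results of these data known. Named genes are the 8, the called genes of each list (or the 1 of smallest p), and the 3 closest to Brap and 1 closest to each other gene by Pearson r; genes outside this are said to be so. Some results, among them 1 of 4 ratios tested between related genes, are not reported here.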

Additional observations from a re-analysis of the deposited data

Results flagged for a closer look

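2 values stood far from the other libraries of their group by Dixon's criterion, among 22 groups of 5 libraries examined; chance marks about 1 in 20 groups. Map2k2 in BrapcKO 21 was 48.61 CPM, below the other 4 BrapcKO libraries at 57.9 to 61.48 CPM. BrapcKO 21 is the only BrapcKO library of title code B2, and the B2 controls had 39, 45.1 and 55.65 CPM. Mapk3 in control 24 was 124.7 CPM, above the other 4 controls at 72.43 to 84.75 CPM. Without control 24 the log2 group difference of Mapk3 was 0.20 (edgeR adjusted p = 0.42).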

How the results depend on the processing

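No paired analysis was possible because the groups share no replicate numbers. The Brap group difference stayed above 0 in all 10 fits that left out a library (0.16 to 0.28 on the log2 scale) and in the 10 other fits (0.22 to 0.30), and was called in none of them. The number of the 8 genes called, 0, became 2 with DESeq2 and ran from 0 to 2 when a library was left out. The number of all genes called, 1152, became 617 with group as the only term and 322 with title code and Y-linked score as terms, and ran from 406 (without BrapcKO 21) to 1454 without a library, with 558 without control 08 and 516 without control 09. The 4 higher and 10 lower pathway genes became 2 and 3 with group alone, 0 and 1 with both terms, and 6 and 6 with library totals only; without a library they ran from 0 to 6 higher and from 2 to 12 lower, the lowest being without BrapcKO 21 (0 higher and 4 lower) and without control 09 (3 and 2).

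Some differences that were not called changed sign. With group alone, Ksr2 stood at 0.0091, the Braf to Araf ratio at 0.042 and the Map2k1 to Map2k2 ratio at -0.13. Without the title code, flox/ko Cre+ minus flox/wt Cre- was 0.10 for Ksr2 and 0.14 for Braf, and with library totals only flox/flox Cre+ minus flox/flox Cre- was 0.0082 for Brap. When a library was left out, B2 minus B1 ran from -0.068 to 0.055 for Brap, -0.16 to 0.10 for Ksr1 and -0.16 to 0.22 for Mapk3. Flox/ko Cre+ minus flox/wt Cre- ran from -0.20 to 0.13 for Ksr2 and -0.086 to 0.024 for Braf. Flox/flox Cre+ minus flox/flox Cre- ran from -0.14 to 0.054 for Brap, -0.44 to 0.11 for Ksr1, -0.15 to 0.33 for Map2k2 and -0.70 to 0.18 for Mapk3. The log2 ratio difference ran from -0.0083 to 0.074 for Map2k1 to Map2k2. The cause was not tested. Counts of the 8 genes were 926 or more per library.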
